A study of Saccharomyces cerevisiae with 4 samples.

Results

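RNA of budding yeast lacking CHD1 was compared with RNA of wild-type yeast over the genes that encode the proteins of the small (40S) cytosolic ribosomal subunit. Genes were taken by name, as the entries of the deposited gene tables that begin with RPS, continue with a number and may end in a copy letter. This gave 56 of 5816 genes, which encode 32 proteins: 24 proteins come from an A and a B copy, and 8 come from 1 gene. The 4 libraries were 2 of a strain with a CHD1 deletion and 2 of the wild type. Both strains were BY4741, a laboratory strain derived from S288C, and were grown in YPD, a rich glucose medium, at 30 °C and 250 rpm until an optical density of 0.6 to 0.8. The labels do not say how CHD1 was removed, whether the deletion strain is 1 clone, or whether replicates came from separate cultures. The p-values therefore measure only the spread between these libraries, which may be technical.

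Each 40S subunit is built from an 18S ribosomal RNA and a fixed set of proteins, so a growing cell needs the proteins in matched amounts. In *S. cerevisiae* most of these proteins are encoded by a pair of genes left from a genome duplication, and the copies of a pair give nearly or wholly identical proteins but can differ in promoter, intron and transcript level. Introns are rare in this yeast and frequent in ribosomal protein genes, where some of them take part in control of the host gene by its own product. CHD1 encodes a chromatin remodeller that spaces nucleosomes over transcribed genes, and the series asks about its work on transcribed and spliced genes.

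Gene reads numbered 4117998 and 2597514 in the deletion libraries and 2145684 and 2824770 in the wild-type libraries. CHD1 itself held 7 and 3 reads in the deletion and 211 and 396 reads in the wild type, so its reads were nearly absent where the labels give a deletion. The 56 genes took 7.45% and 7.41% of gene reads in the deletion libraries and 7.74% and 7.51% in the wild-type libraries. Levels below are reads per 1000000 gene reads on library sizes scaled with edgeR's TMM factors (CPM), or, where genes are compared with each other, the same value per kilobase of exonic length (RPKM). Adjusted p-values come from edgeR's quasi-likelihood test over all 5488 genes tested, with Benjamini-Hochberg adjustment and a threshold of 0.05. Log2 fold changes are deletion over wild type and are given with their standard error, and n is 2 per genotype throughout. A lower count in bulk RNA cannot tell less RNA per cell from fewer cells that make the RNA.

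Annotated introns split the coding sequence of 36 of the 56 genes, 8 more have an intron only in the 5′ leader, and 12 have neither. Leader introns were inferred, not taken from the annotation. They are deposited intron features that end 50 or fewer bases before a start codon, with GT and AG at their ends. RPS22B has both a coding and a leader intron. The junctions and branch regions below, sites read by the spliceosome, belong to the genes on which the results turn. Junctions of both copies are shown for RPS14, RPS9 and RPS30. Of these pairs only RPS14 differs between copies in the first 6 intron bases. Coordinates are those of sacCer3, read on the strand of the gene. Each junction run holds the last 6 exonic bases and the start of the intron, with the first 6 intron bases in capitals.

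RPS14B, chrX:73791-73820, plus strand: ctaacgGTACGTgaaaggggtgatatcctg
RPS14A, chrIII:178190-178219, minus strand: tgtctaGTATGTttaatcacatagtgaaca
RPS22B, chrXII:856569-856598, plus strand: agcatgGTATGTtccaactatttttcaata
RPS13, chrIV:579473-579502, plus strand: agtgccGTATGTttattaacaccatagcga
RPS9A, chrXVI:404951-404980, plus strand: tgccaaGTACGTcgttaatcttctcctttt
RPS9B, chrII:604509-604538, plus strand: tgccaaGTACGTattagactatatcgaaga
RPS30A, chrXII:713132-713161, minus strand: aatatgGTACGTaatgcctcattaggattt
RPS30B, chrXV:678767-678796, minus strand: aaaatgGTACGTtaatattgtgttaaaatg
RPS10B, chrXIII:732460-732489, plus strand: ttcaagGTATGTttgcattttttaggtgaa

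The usual start GTATGT opened 24 of the 36 coding introns (66.7%), against 192 of the 253 annotated introns of all genes (75.9%). GTACGT opened 9, among them those of RPS9A, RPS9B, RPS14B, RPS19A, RPS19B, RPS21B, RPS30A and RPS30B. GTATGA opened the other 3, those of RPS6A, RPS11A and RPS11B. The copies thus differed in this word in the pairs RPS6, RPS14 and RPS21, among others. The branch-point word TACTAAC, where splicing forms its lariat, was present in 33 of 36 coding introns (91.7%) and in 83.4% of all 253. It was absent as these letters from the introns of RPS9A, RPS9B and RPS21A. Between that word and the intron end lay 18 to 82 bases, with a median of 39. The shortest distance was in RPS22B and the longest in RPS4A. The branch regions of 5 genes are shown with TACTAAC in capitals.

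RPS14B, chrX:74162-74191, plus strand: agaagttctgttTACTAACaactatacctc
RPS14A, chrIII:177944-177973, minus strand: aaaacttttggaTACTAACaacattacgtt
RPS22B, chrXII:857022-857051, plus strand: gagattcttcaaTACTAACatttactcctt
RPS30A, chrXII:712753-712782, minus strand: aaaaattcactaTACTAACatggtcattaa
RPS10B, chrXIII:732819-732848, plus strand: aagaaatattatTACTAACaaggaagatca

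Without CHD1, 3 of the 56 genes were lower and none was higher. The 3 were RPS22B, RPS14B and RPS13. All have a coding intron, as do 36 of the 56 genes. Over all genes tested, 3.06% were called lower and 1.68% higher (4.74% in either direction), so 3 of 56 (5.36%) is a count close to that background. At an unadjusted p under 0.05, 12 of the 56 passed, all of them lower (21.4%, against 11% of all genes that were lower at that p), and none was higher, by edgeR. DESeq2 and limma-voom also called 3 lower and 0 higher. The log2 fold change was negative for 52 of the 56 genes (92.9%, against 49.4% of all genes), and its median was -0.13, against 0.004 over all genes. Summed over the 56 genes, levels were 71445 and 71949 CPM in the deletion and 82033 and 76352 CPM in the wild type, so the groups did not overlap. Over all genes tested the sums were 958047 and 970242 CPM in the deletion and 1058760 and 1016100 CPM in the wild type. Those sums did not overlap either, so separate sums alone do not mark the 56 genes out. The 76 large-subunit genes, named RPL, had a median of -0.13, with 8 called lower (10.5%) and 77.6% negative. Both deletion libraries lay below both wild-type libraries in 42 of these 76 genes (55.3%, against 24.4% of all genes). They lay above both in 8 (10.5%, against 24.9%). The difference between the subunits was not tested.

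The size of that shift depended on the scaling. With library sizes from total gene counts, the median of all genes moved to 0.11, the median of the 56 genes was -0.02 and only 30 of them had a negative log2 fold change. Relative to the median of all genes, the 56 genes stood at -0.13 under TMM and at -0.13 under total gene counts. Both deletion libraries lay below both wild-type libraries in 28 of the 56 genes (50%, against 24.4% of all genes) and above both in 1 gene (1.79%, against 24.9%). The shift also depended on single libraries. Without wild-type replicate 2 the median of the 56 genes was -0.17, against 0.014 over all genes. Without wild-type replicate 1 it was -0.07, against 0.018. Without deletion replicate 1 it was -0.14, against 0.002, and without deletion replicate 2 it was -0.11, against 0.0008. In such fits 1 genotype has a single library, so counts of lower genes are not interpreted. Their range is listed only with the processing checks at the end.

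**Figure D1:**
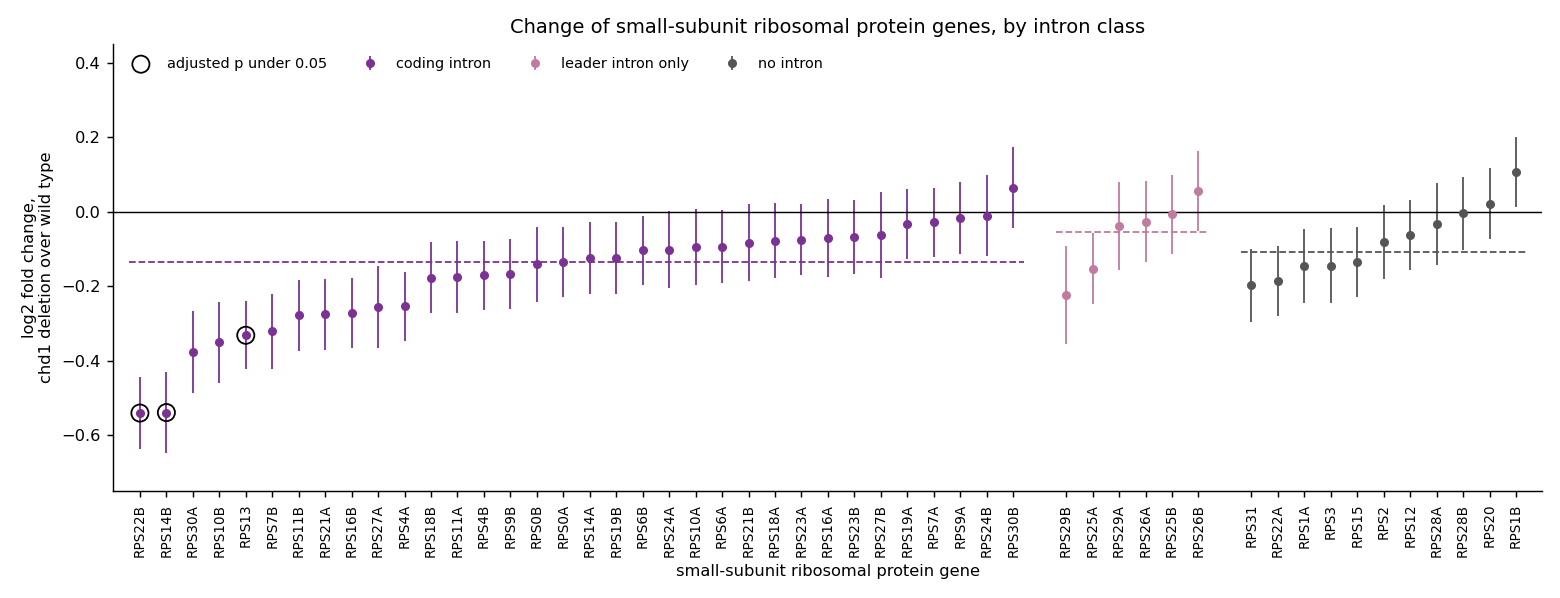
Log2 fold change (y axis, deletion over wild type) of 51 of the 56 small-subunit genes (x axis), ordered within 3 intron classes; bars are standard errors, dashed lines are class medians over all 56 genes and open circles mark an adjusted p under 0.05. RPS22B, RPS14B and RPS13 are circled, and 47 of 51 points lie below 0.

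RPS22B (YLR367W, chromosome XII, 856442 to 857317) encodes a copy of a core protein of the subunit body. Its level was 432 and 474 CPM in the deletion libraries and 656 and 661 CPM in the wild-type libraries. Both deletion libraries lay well below both wild-type libraries. The log2 fold change was -0.54 ± 0.10, or 0.688-fold (adjusted p = 0.00217). Its other copy, RPS22A (YJL190C), has no intron and stood at 1220.4 and 1216 CPM in the deletion and 1453 and 1320.4 CPM in the wild type, with a log2 fold change of -0.19 ± 0.09 (adjusted p = 0.286). For RPS22A, too, both deletion libraries lay below both wild-type libraries.

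The fall of RPS22B was not even along the gene. Its 2nd coding exon held 250.1 and 252 CPM in the deletion and 372 and 269.8 CPM in the wild type. Its 1st coding exon held 101.4 and 139.7 CPM in the deletion and 167 and 272 CPM in the wild type. Wild-type replicate 1 was thus high in the 2nd exon and wild-type replicate 2 in the 1st. The coding intron of RPS22B holds the snoRNA gene SNR44, and gene reads include intron reads. This intron took 17.5% and 15.4% of the gene's reads in the deletion and 15.4% and 16.4% in the wild type. In deletion replicate 1 the coding exons held 81.3% and the leader intron 5.49%, so these parts add to more than the whole. Some reads were thus counted in more than a single feature. Intron shares here are therefore not exact parts of a gene's reads, and subtracting intron reads can take off too many. RPS22B passed in 14 of 15 other fits, which include those with intron reads subtracted and with coding exon reads only, and missed without deletion replicate 1 (adjusted p = 0.0882).

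RPS14B (YJL191W, chromosome X, 73787 to 74611) encodes a copy of a platform protein that contacts the 18S RNA. Its level was 126 and 132 CPM in the deletion and 197 and 178 CPM in the wild type, with no overlap. The log2 fold change was -0.54 ± 0.11, also 0.688-fold (adjusted p = 0.00627). RPS14A (YCR031C), the more abundant copy, had 416 and 385 CPM in the deletion and 436 and 439 CPM in the wild type. Its log2 fold change was -0.12 ± 0.10 (adjusted p = 0.519). The 2nd coding exon of RPS14B, which holds nearly all of its coding sequence, had 91.4 and 94.9 CPM in the deletion and 145 and 135 CPM in the wild type. Like RPS22B, RPS14B passed in 14 of 15 other fits and missed without deletion replicate 1 (adjusted p = 0.0678). RPS14B and RPS22A lie tail to tail on chromosome X, and whether counting used the strand is not known here.

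RPS13 (YDR064W, chromosome IV, 579458 to 580452) is a single gene for another body protein. It stood at 1077 and 1087 CPM in the deletion and 1384 and 1339.8 CPM in the wild type, again with no overlap. Its log2 fold change was -0.33 ± 0.09 (adjusted p = 0.0433). This call lay near the threshold: RPS13 passed in 9 of 15 other fits, with adjusted p from 0.00273 to 0.389, and log2 fold changes from -0.35 to -0.23.

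The other 53 genes had log2 fold changes between -0.38 and 0.11 and adjusted p between 0.0566 and 0.988. The next largest fall was that of RPS30A (YLR287C-A), which encodes a small basic protein of the subunit. It had 328 and 296 CPM in the deletion and 444 and 369 CPM in the wild type, a log2 fold change of -0.38 ± 0.11 (adjusted p = 0.0566). Only 20.3% and 15.5% of its reads in the deletion and 14.4% and 14.5% in the wild type lay in its coding exons, and over coding exon reads alone the log2 fold change was -0.01 ± 0.17 (adjusted p = 0.973). RPS10B (YMR230W), a copy of a protein of the subunit head, followed with 304 and 275 CPM in the deletion and 403 and 339 CPM in the wild type, at -0.35 ± 0.11 (adjusted p = 0.0689). For both genes the deletion libraries were below the wild-type libraries, but wild-type replicate 2 lay close to them. The 3 largest positive values were those of RPS1B, RPS30B and RPS26B, and none passed. RPS1B (YML063W) had 1691 and 1614 CPM in the deletion and 1616 and 1456 CPM in the wild type, a log2 fold change of 0.11 ± 0.10 (adjusted p = 0.590). RPS30B (YOR182C) had 131 and 126 CPM in the deletion and 123 and 123 CPM in the wild type, at 0.06 ± 0.11 (adjusted p = 0.802). It was the only one of the 56 with both deletion libraries above both wild-type libraries. RPS26B (YER131W), a copy of a protein of the messenger RNA exit channel, had 164 and 158 CPM in the deletion and 161 and 149 CPM in the wild type, at 0.06 ± 0.11 (adjusted p = 0.835).

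**Figure D2:**
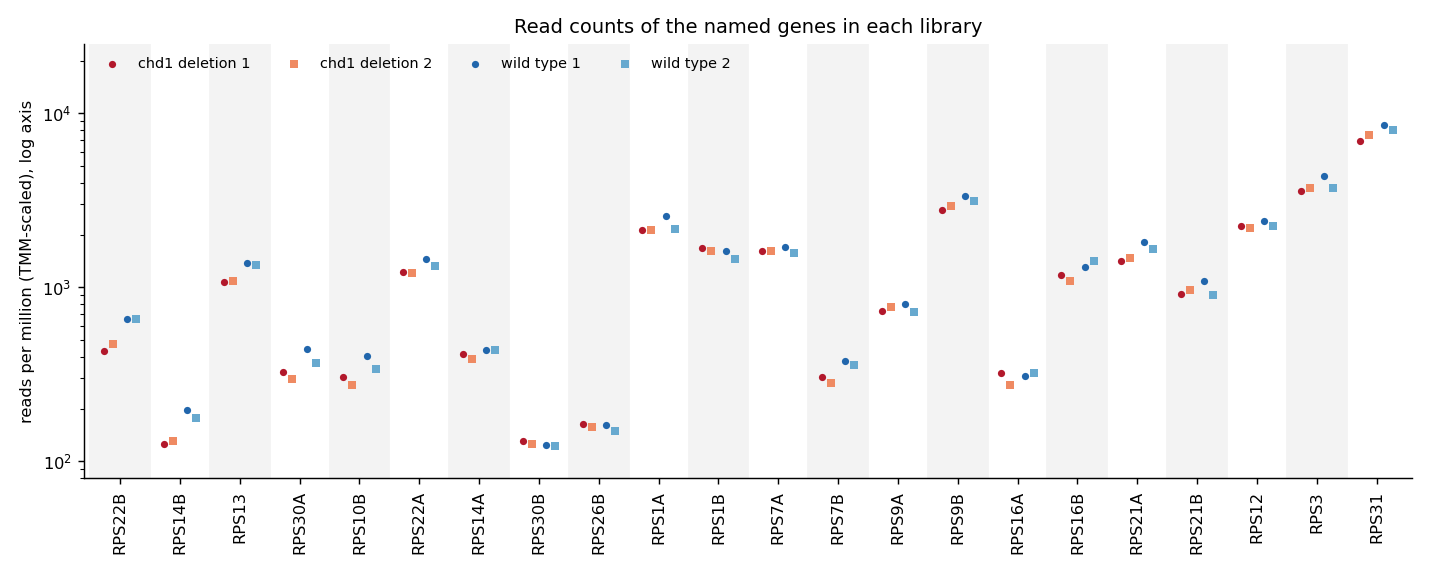
Level (y axis, CPM on TMM-scaled library sizes, log axis) of 22 named genes (x axis) in 2 deletion and 2 wild-type libraries, 1 point per library. RPS22B, RPS14B and RPS13 are lower in both deletion libraries, and RPS31 is the highest gene in every library.

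The intron classes were set side by side without a test, since genes of a list are not replicates. The 36 genes with a coding intron had a median log2 fold change of -0.14, a range of -0.54 to 0.06, and 3 calls. The 8 genes with a leader intron only had a median of -0.05 and a range of -0.22 to 0.06. The 12 genes with no intron had a median of -0.11 and no value above 0.11. Neither of these classes held a call, and at the share of all genes few calls would fall among 8 or 12 genes. The class with a coding intron summed to 38181 and 38252 CPM in the deletion and 44003 and 41534 CPM in the wild type. Genes with no intron summed to 26779.8 and 27199 CPM in the deletion and 30746 and 28166 CPM in the wild type, and genes with a leader intron only to 6484 and 6499 CPM in the deletion and 7283 and 6652 CPM in the wild type. In each class the deletion libraries lay below the wild-type libraries. The sums over all genes tested, given above, lay in the same order, so it marks no class out.

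Although ribosomes use the proteins in matched amounts, transcript levels summed over gene copies ranged widely. These levels include reads outside the coding exons, whose share differed between genes. Coding exons held 14.4% to 20.3% of RPS30A reads and 99.0% or more of RPS9B reads. The spread over coding exon reads alone was not computed. Per kilobase, the highest stood 14.4-fold above the lowest in the deletion and 16.4-fold in the wild type. RPS31 (YLR167W), which encodes ubiquitin fused to a small-subunit protein, was the highest, with 12353 and 13262 RPKM in the deletion and 15128 and 14250.2 RPKM in the wild type. Its log2 fold change was -0.20 ± 0.10 (adjusted p = 0.277), although the genotypes did not overlap. Without RPS31 the spread was 7.82-fold in the deletion and 7.91-fold in the wild type. RPS28, from 2 copies, came next, with 6829.7 and 7105 RPKM in the deletion and 7692 and 6453 RPKM in the wild type, which overlapped. RPS26 and RPS14 were at the low end. RPS26 summed to 909 and 878 RPKM in the deletion and 851 and 938 RPKM in the wild type. RPS14 summed to 913 and 870.0 RPKM in the deletion and 1042 and 1034 RPKM in the wild type. These neighbours overlapped in the deletion.

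Among the 8 single-copy genes, RPS3 and RPS12 were the highest per length after RPS31. RPS3 (YNL178W), a protein of the messenger RNA entry site, had 3569 and 3719 CPM in the deletion and 4339 and 3721 CPM in the wild type. Deletion replicate 2 and wild-type replicate 2 were nearly equal, and the log2 fold change was -0.15 ± 0.10 (adjusted p = 0.464). RPS12 (YOR369C), a protein of the head, had 2259.6 and 2181 CPM in the deletion and 2401 and 2239 CPM in the wild type, with a log2 fold change of -0.06 ± 0.09 (adjusted p = 0.764). Its groups overlapped. Of the 8 single-copy genes only RPS13 passed the test, and only RPS20 had a positive log2 fold change.

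**Figure D3:**
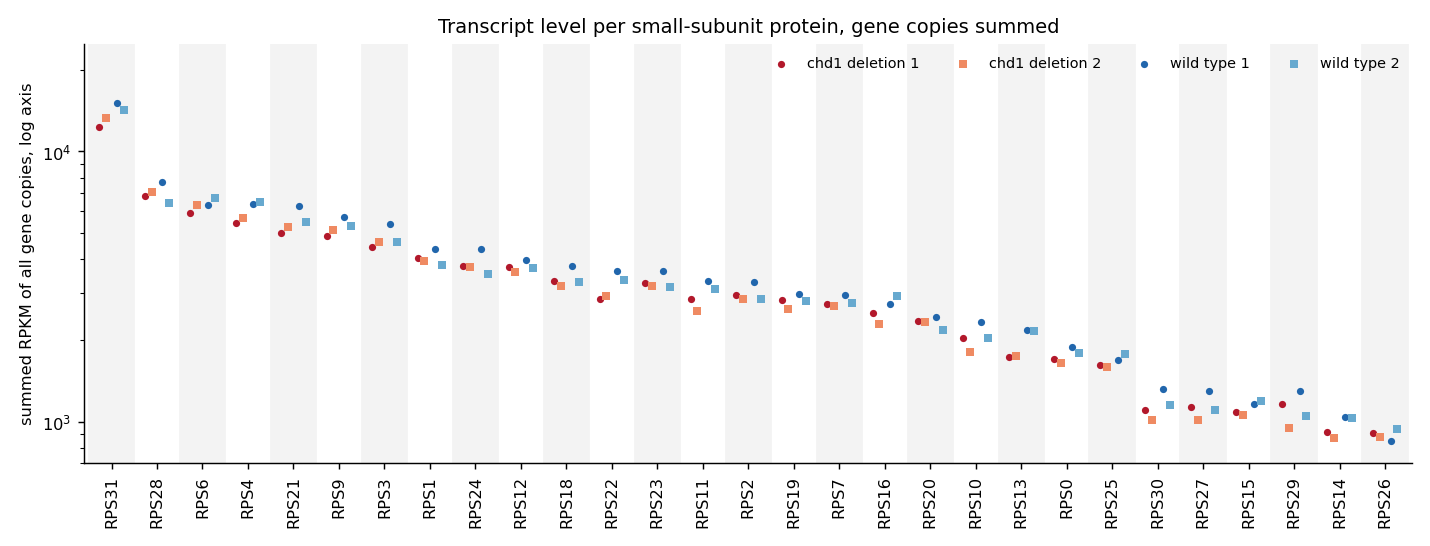
Level per protein (y axis, RPKM summed over gene copies, log axis) for 29 of the 32 small-subunit proteins (x axis), with 1 point for each of 2 deletion and 2 wild-type libraries. RPS31 is far above the rest, and RPS14 and RPS26 are at the low end. Levels include reads outside the coding exons.

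The A and B copies of a pair were compared per length within each library. The A copy was the higher one in all 4 libraries in 18 of 24 pairs and the B copy in 5, and RPS29 was mixed. The most unequal pairs were RPS7, RPS9 and RPS16. RPS7A stood at 2336 and 2324 RPKM in the deletion and 2468 and 2285 RPKM in the wild type, while RPS7B stood at 391 and 357 RPKM in the deletion and 476 and 457 RPKM in the wild type. The RPS9 pair, for a protein that helps to keep decoding accurate, leaned the other way. RPS9A had 858 and 905 RPKM in the deletion and 938 and 832 RPKM in the wild type, and RPS9B had 4007 and 4213 RPKM in the deletion and 4761 and 4474 RPKM in the wild type. RPS16A had 545 and 465 RPKM in the deletion and 524 and 540.4 RPKM in the wild type, and RPS16B had 1976 and 1835 RPKM in the deletion and 2213 and 2385 RPKM in the wild type. The order of the copies was the same in both genotypes for these 3 pairs. These levels include reads outside the coding exons, and copies differ in that: coding exons held 45.1% and 46.4% of RPS16B reads in the deletion and 44.4% and 44.6% in the wild type, but between 94.5% and 97.3% of RPS16A reads. Over coding exon reads the RPS16 ratio of A to B was 0.584 and 0.517 in the deletion and 0.508 and 0.493 in the wild type, against 0.276 and 0.253 in the deletion and 0.237 and 0.227 in the wild type over gene reads. For RPS9A, 57.1% to 61.8% of reads lay in coding exons, and for RPS9B 99.0% or more. In 2 of the 21 pairs with coding exon counts, RPS27 and RPS30, the A copy was higher over gene reads and the B copy over coding exon reads in all 4 libraries.

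The ratio of A to B was tested as an interaction of copy and genotype over all 61 A and B pairs of the gene tables, with library as a block. Among the 24 small-subunit pairs 6 were called, against 16.4% of the 61 pairs. The genes and libraries are those of the gene test, so this test gives no second line of evidence for RPS22B and RPS14B. RPS14 had an A to B ratio of 4.31 and 3.77 in the deletion and 2.86 and 3.08 in the wild type, a log2 change of 0.42 ± 0.15 (adjusted p = 0.0423). RPS22 had ratios of 3.29 and 2.996 in the deletion and 2.56 and 2.44 in the wild type, a log2 change of 0.36 ± 0.09 (adjusted p = 0.00148). RPS7 had ratios of 5.98 and 6.51 in the deletion and 5.19 and 4.997 in the wild type, a log2 change of 0.29 ± 0.09 (adjusted p = 0.0188). In these 3 pairs the weaker B copy had the lower fold change: RPS7A was at -0.03 ± 0.09 (adjusted p = 0.909), and RPS7B, with 307 and 281 CPM in the deletion and 378 and 358 CPM in the wild type, at -0.32 ± 0.10 (adjusted p = 0.0728).

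RPS9 had A to B ratios of 0.214 and 0.215 in the deletion and 0.197 and 0.186 in the wild type, a log2 change of 0.15 ± 0.06 (adjusted p = 0.0423). RPS9A was at -0.02 ± 0.10 and RPS9B at -0.17 ± 0.09 for the log2 fold change, so here the stronger B copy had the lower value. The other 2 called pairs moved in the opposite sense. RPS1, a pair for a large platform protein, had ratios of 1.10 and 1.15 in the deletion and 1.37 and 1.30 in the wild type, a log2 change of -0.25 ± 0.05 (adjusted p = 0.000374). RPS1A had 2138 and 2131 CPM in the deletion and 2554 and 2170.4 CPM in the wild type, a log2 fold change of -0.15 ± 0.10 (adjusted p = 0.459), opposite in sign to that of RPS1B. RPS21, a pair for a small protein needed in late maturation of the subunit RNA, had ratios of 1.34 and 1.32 in the deletion and 1.46 and 1.59 in the wild type, a log2 change of -0.20 ± 0.07 (adjusted p = 0.0423). RPS21A had 1408 and 1470.2 CPM in the deletion and 1832 and 1653 CPM in the wild type, and RPS21B had 912 and 966 CPM in the deletion and 1088 and 903 CPM in the wild type. RPS30, at -0.42 ± 0.16 (adjusted p = 0.0576), did not pass, and over coding exon reads its log2 change was -0.06 ± 0.27 (adjusted p = 0.833).

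These 6 calls rest on the spread that edgeR estimated over the pair table. Each pair's spread is drawn toward a spread shared by all pairs, with a weight given as prior degrees of freedom. That weight was 179.5 in the main fit. It was 5.90 with intron reads subtracted, 2.08 with coding exon reads only and 2.03 to 9.86 with 1 library left out. The fits below thus differ from the main fit in this weight as well as in their reads or libraries. With intron reads subtracted, or with any 1 library left out, none of the 24 pairs was called, while the log2 changes of the 6 pairs kept their sign: that of RPS1 lay between -0.29 and -0.21 and that of RPS22 between 0.28 and 0.43. Coding exon reads could be compared in 21 of the 24 pairs, without RPS1 and RPS22, and none was called. There the log2 change was 0.27 ± 0.06 for RPS7, 0.50 ± 0.08 for RPS14, 0.13 ± 0.07 for RPS9 and -0.13 ± 0.09 for RPS21. The groups' ratios did not overlap in 17 of the 24 pairs, against 65.6% of all 61 pairs, so separate groups alone mark no pair out. Over the 24 pairs, the B copy had the lower log2 fold change in 13. The coding sequences of the copies of called pairs were 85.5% (RPS7) to 92.1% (RPS14) identical. Runs of 50 bases shared by both copies filled at most 11.8% of the coding windows in these pairs (RPS14). In RPS6 such runs filled 72.1%, so reads of its copies can be shared between them. The treatment of reads that map equally well to both copies is not known here.

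**Figure D4:**
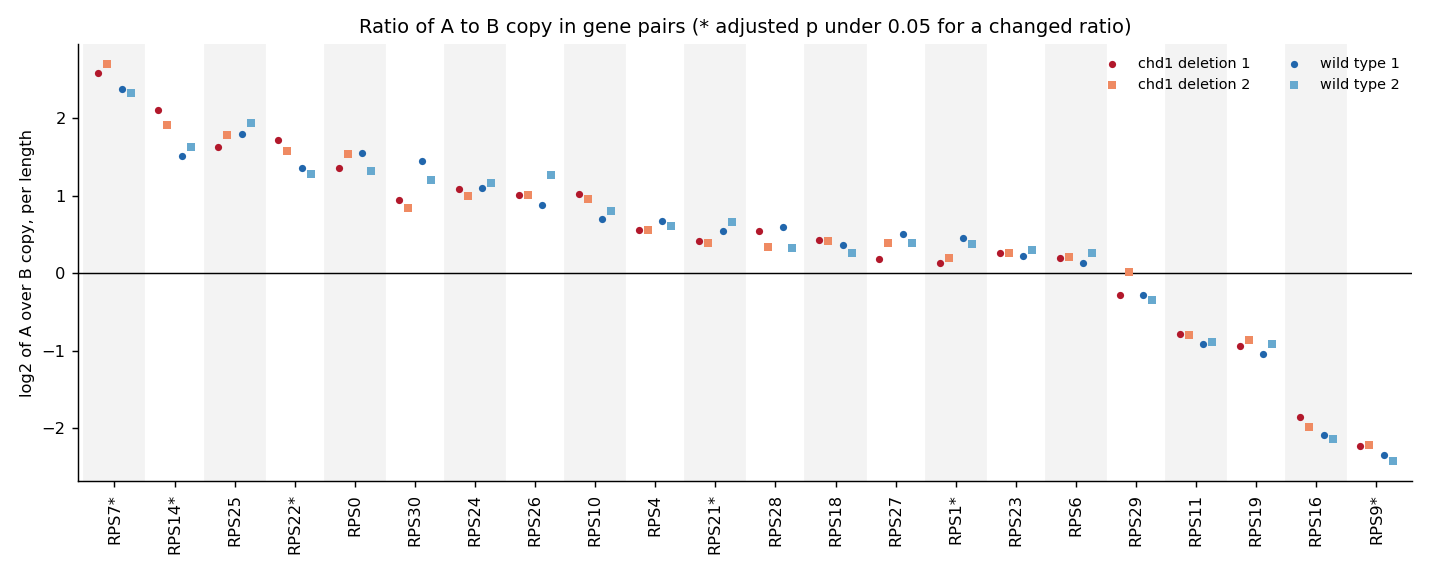
Log2 ratio of A to B copy per exonic length (y axis) in 22 of the 24 pairs (x axis), with 1 point for each of 2 deletion and 2 wild-type libraries; an asterisk marks an adjusted p under 0.05 for a changed ratio. RPS7, RPS14 and RPS22 lie higher in the deletion, and RPS1 and RPS21 lie lower.

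Reads counted in introns can come from unspliced or excised intron RNA, but some of them may also be counted in an exon. Summed over the 36 coding introns, they made up 0.972% and 0.997% of the reads of their genes in the deletion and 1.22% and 1.20% in the wild type. The median intron took 0.378% and 0.605% in the deletion and 0.517% and 0.478% in the wild type. In 20 of 36 genes the share was under 1% in every library, and in 3 genes, RPS14B, RPS22B and RPS13, it was over 5% in every library. These are the 3 genes called lower in the deletion. RPS9A (4.71% to 6.47%) and RPS30B (4.14% to 6.16%) came next by share. Their log2 fold changes were -0.02 ± 0.10 and 0.06 ± 0.11. A link between intron share and the change of a gene was not tested. With intron reads subtracted, RPS22B and RPS14B still passed the gene test, and RPS13 had a nearly unchanged log2 fold change of -0.32 ± 0.09 with an adjusted p of 0.0502. Together with RPS9A they held 64.5% and 64.9% of the summed intron reads in the deletion and 63.1% and 62.8% in the wild type.

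RPS14B had the largest share. Its intron held 142 and 87 reads in the deletion and 103 and 112 reads in the wild type, or 26.2% and 24.7% of the gene's reads in the deletion and 25.8% and 22.7% in the wild type. The 95% Wilson intervals were 22.6% to 30.0% and 20.5% to 29.5% in the deletion and 21.7% to 30.3% and 19.2% to 26.6% in the wild type. All 4 intervals overlap. They cover counting error only, and reads amplified by PCR are not independent molecules. In this yeast the RPS14B transcript is a known target of its own protein, which holds back its splicing. RPS14A, whose intron begins with GTATGT and not GTACGT, had an intron share of 0.951% and 0.776% in the deletion and 1.59% and 1.07% in the wild type. RPS9 showed the same contrast between copies: the RPS9A intron held 4.71% and 5.74% in the deletion and 5.60% and 6.47% in the wild type, and the RPS9B intron 0.291% and 0.381% in the deletion and 0.386% and 0.300% in the wild type. Both RPS9 introns begin with GTACGT and lack TACTAAC, so those words did not separate them. Among the 9 introns with GTACGT, the median share was 1.49% and 1.90% in the deletion and 2.34% and 2.48% in the wild type, against 0.367% and 0.271% in the deletion and 0.445% and 0.453% in the wild type for the 24 with GTATGT. This is a description over few genes, and RPS22B and RPS13, with high shares, belong to the second set.

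RPS13 had 414 and 260 intron reads in the deletion and 288 and 324 in the wild type, a share of 8.95% and 8.94% in the deletion and 10.3% and 8.70% in the wild type. RPS22B had 325 and 196 reads in its coding intron in the deletion and 204 and 301 in the wild type, and here SNR44 reads cannot be told apart from the pre-messenger RNA. The leader intron of RPS22B, a known substrate of the RNase III enzyme Rnt1, held 102 and 98 reads in the deletion and 90 and 187 in the wild type. Scaled to library size this was 23.7 and 36.6 CPM in the deletion and 44.4 and 67.3 CPM in the wild type, with no overlap. In a fit with leader introns added to the coding introns, chosen after the data were seen, it was called lower, with a log2 fold change of -0.93 ± 0.24 (adjusted p = 0.00503), against 6.72% called of the 119 introns in that fit. Relative to its gene it stood at -0.39 ± 0.22 (adjusted p = 0.444). Of the other leader introns, that of RPS29A took the largest share, 15.2% and 15.5% of gene reads in the deletion and 13.9% and 14.7% in the wild type. The gene RPS29A had a log2 fold change of -0.04 ± 0.12.

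Of the 36 coding introns, 32 had at least 20 reads over the 4 libraries and were tested among the 103 such introns of all genes. Lower intron counts were called for 2 of the 32, those of RPS30A and RPS10B, against 6.8% of the 103, and none of the 103 was called higher. The RPS30A intron held 21 and 15 reads in the deletion and 29 and 31 in the wild type, a log2 fold change of -1.27 ± 0.31 (adjusted p = 0.00204). The RPS10B intron held 23 and 6 reads in the deletion and 19 and 27 in the wild type, a log2 fold change of -1.20 ± 0.35 (adjusted p = 0.0132). Its deletion replicate 1 lay between the wild-type counts before scaling. Both calls rest on few reads: without 1 library RPS30A passed only where deletion replicate 2 was left out, and RPS10B only where deletion replicate 1 was. Over the 32 introns the log2 fold change was negative in 31, with a median of -0.48, against 81 negative of the 103 (78.6%) with a median of -0.41.

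Relative to their own genes, none of the 32 introns passed, against 0.971% of the 103. Gene reads in this test include those of the intron, which draws the relative change toward 0, most where the intron share is large. Against the exonic reads of the gene, none passed either. By edgeR, 5 of the 32 had an unadjusted p under 0.05, as did 15 of the 103 (14.6%). RPS30A had a relative log2 change of -0.92 ± 0.37 (adjusted p = 0.228) and RPS10B one of -0.89 ± 0.40 (adjusted p = 0.244). The introns of RPS14B and RPS22B moved with their genes, at 0.08 ± 0.20 (adjusted p = 0.898) and 0.05 ± 0.19 (adjusted p = 0.940), and that of RPS13 was at -0.08 ± 0.16 (adjusted p = 0.867). These standard errors leave room for changes in either direction. The relative change was negative in 28 of the 32 introns, against 71.8% of the 103, and its median was -0.33 over the 32 and -0.22 over all 103.

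**Figure D5:**
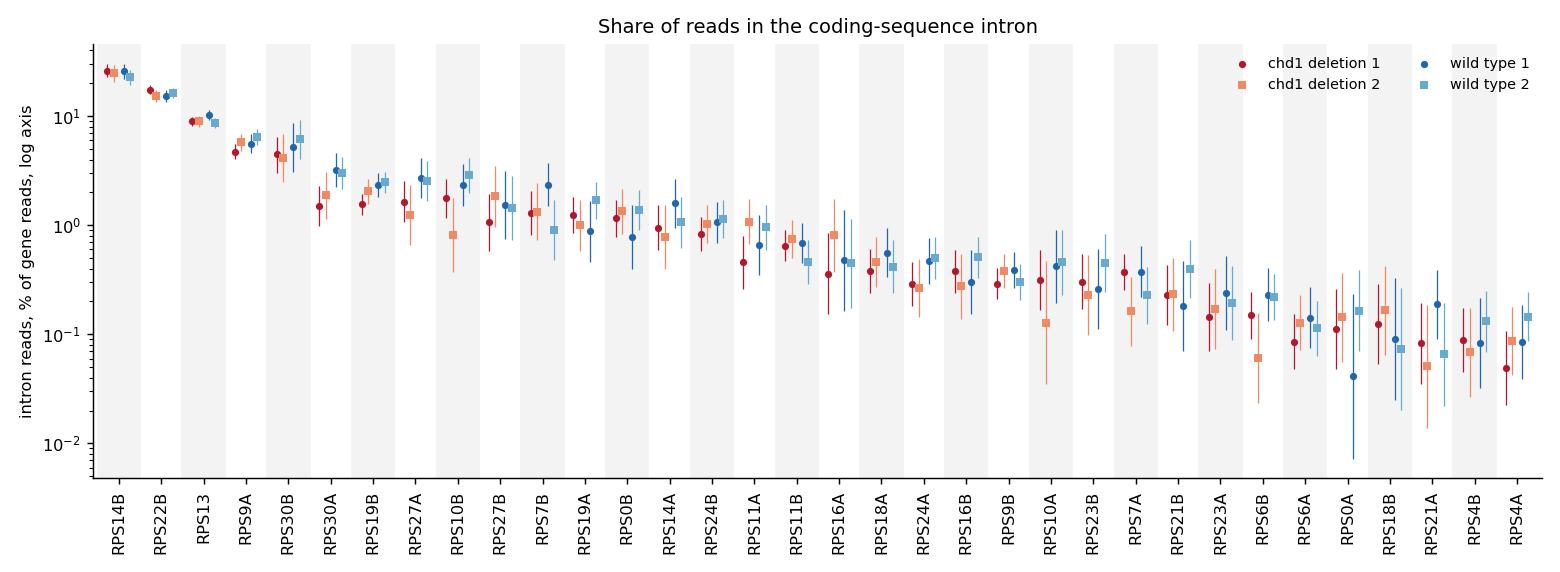
Share of a gene's reads that fell in its coding-sequence intron (y axis, percent, log axis) for 34 of the 36 genes (x axis), with 1 point for each of 2 deletion and 2 wild-type libraries and 95% Wilson intervals for counting error. RPS14B, RPS22B and RPS13 lead, and the intervals of the genotypes overlap in these genes.

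Promoters of ribosomal protein genes are commonly bound by Rap1, which recruits the activators Fhl1 and Ifh1, and a few by Abf1. A simple Rap1 word, ACCCNNACA on either strand, occurred within 500 bases before the start codon in 18 of the 56 genes (32.1%), against 319 of 5791 genes (5.51%) with such a window. An Abf1 word, TCA and ACG with any 6 bases between them on either strand, occurred in 12 of 56 (21.4%), against 22.98% of all genes. Of the 3 genes that fell, RPS13 held the Rap1 word and also the Abf1 word, and RPS14B held neither. In RPS22B, 493 of the 500 bases lie in the leader intron, so this window says nothing about its promoter. In all 9 genes with a leader intron that intron filled 308 or more of the 500 bases. The window of RPS13 and that of RPS10B, which reads the word on the opposite strand, are shown with the word in capitals.

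RPS13, chrIV:579218-579247, plus strand: cataaagtagACCCAAACAtttttaaaaaa
RPS10B, chrXIII:732214-732243, plus strand: acatcgcgcaTGTGTGGGTgtatatgccct

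Other genes of the pathway were read from lists of 17 regulators of ribosomal protein gene transcription and 22 factors of small-subunit assembly. Among the regulators 1 was called lower and 0 higher, against 3.06% and 1.68% of all genes, and the median log2 fold change was -0.01. The one was SFP1, an activator of ribosomal protein genes, with 59.8 and 58.3 CPM in the deletion and 67.6 and 121 CPM in the wild type, a log2 fold change of -0.71 ± 0.18 (adjusted p = 0.0327). This rested on wild-type replicate 2: without that library the value was -0.18 (adjusted p = 0.613). DESeq2 gave an adjusted p of 0.412. RAP1 (0.05 ± 0.12), FHL1 (-0.08 ± 0.13) and IFH1 (0.21 ± 0.12) did not pass, nor did HMO1, a high-mobility-group protein of these promoters (-0.30 ± 0.10, adjusted p = 0.104). Among the assembly factors 1 was called higher and 0 lower, with a median log2 fold change of 0.12. UTP30, a factor of early pre-ribosomes, had 55.4 and 50.1 CPM in the deletion and 31.6 and 36.3 CPM in the wild type, at 0.63 ± 0.15 (adjusted p = 0.0210, and 0.177 without deletion replicate 1). DESeq2 gave UTP30 no adjusted p. ASC1, a small-subunit protein outside the RPS names, had 8564 and 8362 CPM in the deletion and 11488 and 9144 CPM in the wild type, with a log2 fold change of -0.29 ± 0.11 (adjusted p = 0.152). STM1, which clamps idle ribosomes, was at -0.17 ± 0.09 (adjusted p = 0.345).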

How the data were processed

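Total RNA was taken by hot acid phenol, made into libraries with a kit meant for small RNA and sequenced on a HiSeq instrument, per the labels. CASAVA 1.8, TopHat and the build sacCer3 are listed in the submitters' processing notes, with the read counter, strand use and multi-mapping rule not given in the sources used here. The authors deposited whole-number read counts per gene and per intron-table feature, and a normalized signal per length that entered no test here. Intron features were matched to the R64 annotation: 253 equal annotated introns. Another 20 were taken as leader introns by their place before a start codon and their GT and AG ends, allowing a shift of a single base.

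Counts were tested with edgeR 4.0.16 (R 4.3.3), filterByExpr at a minimum of 10, TMM and genotype as the only term. DESeq2 1.42.0, limma 3.58.1 and other settings were alternatives. Pairs were tested with both copies at 10 or more reads on average. Scripts were tested on simulated data. RPKM used gene length less intron length; the leader introns of RPS26A and 1 other gene lie outside the gene lengths of the tables. Members, lists and tests were chosen with earlier results of these data known. Genes named in full are those past a test, the 3 largest rises and falls, the 3 highest single-copy genes, and the 3 most unequal pairs; RPS29A was named after its values were seen. Results of some single genes are not reported here and not plotted, but counts, medians and sums include them. No other per-sample columns were left aside.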

Additional observations from a re-analysis of the deposited data

How the results depend on the processing

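With 1 library left out, the number of lower genes ranged from 0 to 15, higher genes stayed at 0, called pairs were 0, called introns ranged from 0 to 1 and called regulators or assembly factors from 1 to 3; the cause was not tested, beyond there being 3 libraries in the fit. With 1 library left out, 1 genotype has a single library, so no conclusion is drawn from these counts. The number of lower genes over all genes tested also differed between these fits. Same-numbered libraries did not deviate together (correlation 0.014 across genes), so the replicate numbers were not taken as pairs. The replicate block gave 5 lower genes among the 56, against 3. Over all 5488 genes it gave 259 lower, against 168. Called pairs were 0 of 24 with intron reads subtracted, with coding and leader intron reads subtracted, and with coding exon reads only (21 pairs), against 6. The weight on the shared spread was lower in these fits than in the main fit. Regulators or assembly factors called were 1 with total gene counts and 0 with DESeq2, against 2. Log2 values near 0 changed sign: with total gene counts RPS12 was at 0.043, RPS7A at 0.078, RPS21B at 0.024 and RPS9A at 0.089, and with the stricter filter RPS9A was at 0.0043. With 1 library left out, RPS7A ranged from -0.075 to 0.033, RPS21B from -0.20 to 0.059, RPS9A from -0.087 to 0.067 and the RPS26 pair from -0.26 to 0.12. Relative to the gene, the intron of RPS22B ranged from -0.040 to 0.14, that of RPS14B from -0.0099 to 0.17 and that of RPS13 from -0.20 to 0.039. Because of depth, 4 of 36 introns fell short of 20 reads and were not tested. The alternatives on coding exon reads, leader introns and exonic reads were chosen after seeing the data.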
